A study of Mus musculus with 2 samples.

Results

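Contigs just downstream of gene ends are stretches of continuous RNA signal that lie past the annotated 3′ end of a gene, on the strand of that gene. The authors' table for mouse genome build mm9 lists 830022 contigs, each with a level, pooled over both libraries, and a reproducibility value for which low means reproducible. Members were contigs with a reproducibility value of 0.1 or less that overlapped no Ensembl 65 gene on either strand and lay within 10000 bases downstream of a same-strand gene end. Of 424626 contigs that were reproducible by this measure, 83472 lay outside genes and 20738 were members. Each member was assigned to the gene with the nearest upstream end, its host. The hosts numbered 8449 of 37310 genes, a share of 22.6%. Position and reproducibility chose these contigs, so their number, distance and level are a description.

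The libraries came from whole brain of C57BL/6J embryos at embryonic day 14.5, a time of cortical neuron production. They form 1 group of 2 libraries, replicate 2 and replicate 1, made from littermates of mixed sex, so no contrast between conditions exists. Per the labels the RNA was polyadenylated, rRNA-depleted and longer than 200 nucleotides, sequenced from both ends with strand kept, and carried spike-in RNA. The labels do not say which animals each library holds, so differences between replicates may reflect handling alone. The summed expected counts on annotated genes were 97539730 (replicate 2) and 103493289 (replicate 1). Neuron and progenitor markers ranged from 24.2 to 2753 TPM (transcript abundance scaled to a fixed library total). The liver genes Alb, Apoa1 and Afp stood at 1.33, 2.27 and 2.83 TPM in replicate 2, against 0.35, 3.69 and 5.18 in replicate 1. The muscle genes Myh3, Acta1 and Ckm stood at 1.07, 6.79 and 0.26 TPM in replicate 2, against 1.01, 8.46 and 0.13 in replicate 1. The red cell genes Hba-a1, at 2091 and 1698 TPM, and Hbb-y, at 412 and 259 TPM, were abundant too. In bulk tissue, fewer cells of a type and less RNA per cell cannot be told apart.

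An mRNA ends where the cleavage and polyadenylation machinery cuts the nascent transcript downstream of a poly(A) signal, of which AAUAAA is the best known form, and adds a poly(A) tail. Genes often hold several such sites, and neurons are known for using distal ones, which gives long 3′ untranslated regions (UTRs) that carry binding sites for microRNAs and RNA-binding proteins such as the Elav-like family. RNA polymerase also runs on past the cleavage site before it stops. Signal downstream of an annotated end can therefore belong to a longer 3′ UTR, an extra exon, read-through RNA or a separate gene, and a contig alone does not say which.

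A later annotation, GENCODE vM21, offers an end to compare with. It was read by transcript identifier on its own build, GRCm38, with no conversion of coordinates. The last exon of the same transcript could be compared for the hosts of 16363 members. In only 22 of these the contig ended within 50 bases of the end that the later annotation gives to that exon. The share for other contigs was not computed. These members were picked out after their values were seen. The motif AATAAA, sought on the sense strand, stood in the last 50 bases of 17 of the 22 later transcripts, and in 40.5% of all 58797 protein-coding transcripts of that annotation. These sets are unlike. The 22 are a single transcript per host, the one whose comparable last exon grew most, and the 58797 were not limited in this way. The last 30 bases are shown for 7 transcripts, all chosen from the 17 with the motif, because they are later annotated ends near which contigs stop. The signal is in capitals (5′ to 3′, from the GENCODE vM21 transcripts).
Atxn1: tactAATAAAataacagtgccaattgcaaa
Sod2: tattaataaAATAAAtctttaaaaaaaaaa
Dlg1: tcatctaagAATAAAtatctttttggtcag
Glra3: aactatAATAAAaattaatgtttttcaaca
Adcy8: gtaactgaAATAAAccctttcctcccctaa
Sntb1: actgAATAAAtatttgtctcagatctccaa
Trim71: tcaAATAAAcagagggttgtcccatgaaaa

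Atxn1, the gene of spinocerebellar ataxia type I, showed the highest level among these 22 members. Its member (mm9 chr13:45645082-45648506, minus strand) was 3425 bases long, began 1756 bases past the Ensembl 65 end and had a level of 5.41, against 1.85 in the terminal contig of the gene. The terminal contig is the highest same-strand contig that overlaps the gene and reaches into its last 1000 bases. It can reach far into the gene or past its end, and its level is a mean over its whole length. The last exon of Atxn1 is 5138 bases longer in the later annotation, and the member stopped 42 bases past that later end. A second contig of Atxn1, 6772 bases past the old end and beyond the later one, had a level of 0.045. Sod2, which encodes the mitochondrial superoxide dismutase, had a member of 849 bases at a level of 0.859, against 4.48 in its terminal contig, and this member ended exactly at the later end, 2015 bases farther on. The 7 other members of Sod2 lay beyond that end at levels of 0.172 to 0.37. The scaffold gene Dlg1 had a member at 0.152, against 2.62 in its terminal contig, and the glycine receptor gene Glra3 had one at 0.207, against 0.049. The adenylyl cyclase gene Adcy8 stood at 0.049, against 0.514. The syntrophin gene Sntb1 stood at 0.207, against 0.411, and Trim71, an RNA-binding ubiquitin ligase of early development, at 0.135, against 0.084. Across all 22 members the level ranged from 0.044 to 5.41, with a median of 0.1215.

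Most downstream contigs were short and faint. A level of 1 corresponds to a mean depth of 58 reads per base, pooled over both libraries. The median level was 0.077, a mean depth of 4.46 reads, and the 5th and 95th percentiles were 0.041 and 0.354. The lowest member stood at 0.024. Only 349 members reached a level of 1 and 24 a level of 10. The median length was 652 bases. Of the members, 708 were shorter than 200 bases and 282 reached 5000 bases. A single member was found downstream of 3507 hosts (41.5%), and 1113 hosts had 5 or more. The most, 12, lay downstream of the small nuclear RNA gene Gm23677, followed by 11 each at 4 hosts, among them Cbln4, a synaptic organizer of the cerebellin family, and Gm20878; the other 2 have no symbol. The transcription factor gene Barhl2 had 10, at levels of 0.045 to 0.265, and the zinc finger gene Zfp938 had 10, at 0.043 to 0.123. At the edge of the reproducibility rule, the 1628 members at 0.09, just inside, had a median level of 0.056 and the 1625 contigs at 0.13, just outside, 0.053. At the edge of the distance rule, the 1153 members in the last 1000 bases had a median level of 0.079 and the 1077 contigs in the next 1000 bases 0.076.

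Downstream contigs grew scarcer with distance from the gene, while their median level hardly moved. The first 1 kb past the gene end held 3525 members and the last, from 9 to 10 kb, held 1153. The median level per 1 kb bin ranged only from 0.075 to 0.079. Within 10 kb there were 20738 contigs downstream on the same strand, against 10066 downstream on the other strand, 10815 upstream of a gene start on the same strand and 13470 upstream on the other strand. Upstream on the other strand 3046 contigs fell in the first 1 kb, 1732 in the next. A contig can stand in more than 1 of these counts. Of the members, 4545 (21.9%) also lay within 10 kb upstream of another gene start on their strand.

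**Figure D1:**
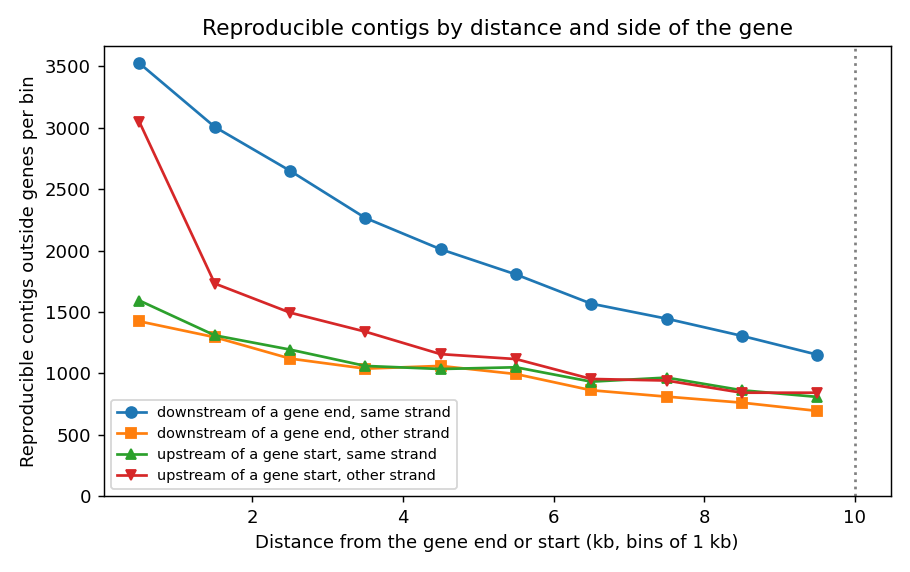
Number of reproducible contigs outside genes (vertical axis) per 1 kb of distance (horizontal axis) on each side of a gene. The downstream same-strand line, the members, starts at 3525 and ends at 1153; upstream on the other strand the count starts at 3046 and drops to 1732 in the second bin. The dotted line marks the 10 kb limit.

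Genes with intermediate expression had downstream contigs most often. By the mean of the 2 deposited RPKM values (reads scaled by gene length and library size) on Ensembl 65 genes, 5.41% of the 12876 genes at 0 were hosts and 14.98% of those above 0 and up to 0.1 RPKM. The share was 32.5% from 0.1 to 1 RPKM, 45.5% from 1 to 10 RPKM, 40.6% from 10 to 100 RPKM, and 29.1%, or 23 of 79 genes, above 100 RPKM. Members of hosts from 1 to 10 RPKM had a median level of 0.074 and those of hosts above 100 RPKM 0.08. Relative to the terminal contig, the median member thus stood at 87.4% for hosts at 0 RPKM, 2.36% from 1 to 10 RPKM and 0.0962% above 100 RPKM.

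**Figure D2:**
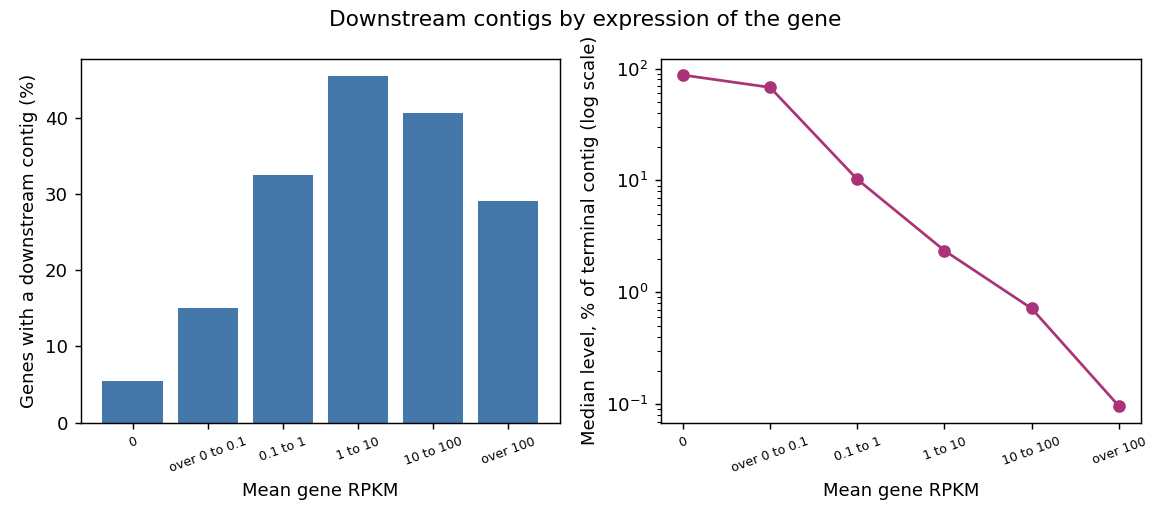
Genes grouped by mean RPKM (horizontal axes). Left, percent of genes with at least 1 downstream contig, highest at 45.5% from 1 to 10 RPKM; right, median member level as percent of the terminal contig on a log scale, from 87.4% for genes at 0 to 0.0962% above 100 RPKM.

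Against the end of its own gene, a downstream contig was usually weak. A terminal contig was found for 19688 members, and the median member had 3.80% of its level. Of these, 2924 members (14.9%) stood at 1% or less, 10796 (54.8%) above 1% and up to 10%, 3360 (17.1%) above 10% and up to 50%, and 1241 (6.30%) above 50% and up to 100%. The remaining 1367 members (6.94%), of 881 hosts, exceeded the terminal contig, and the median of the mean RPKM was 0.0210 for these hosts and 1.39 for all hosts. With hosts at 1 RPKM or more alone, a choice made after the data were seen, the median fell to 2.04%. Across 7743 hosts with both, Spearman's rho between the highest member level and the terminal contig level was -0.0455, a description over genes that share the libraries and are not independent replicates.

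**Figure D3:**
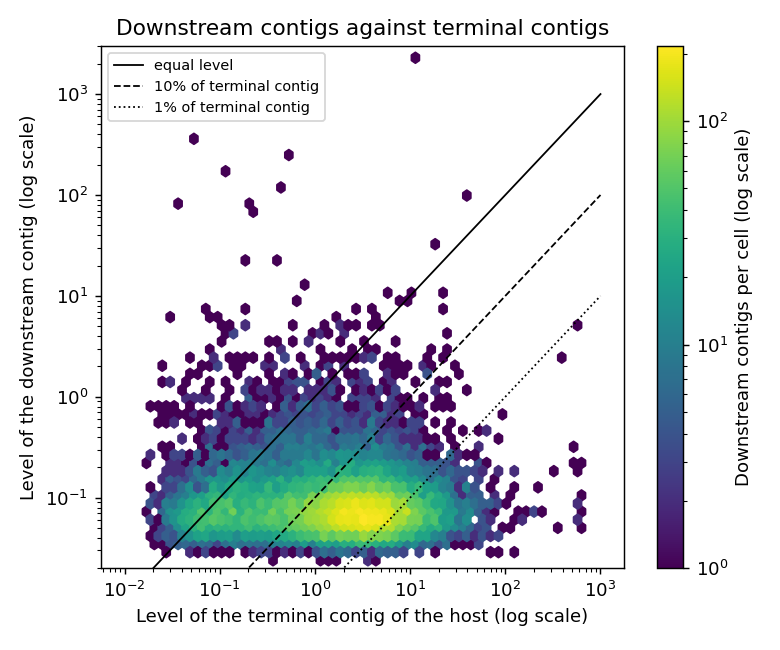
Level of each downstream contig (vertical axis, log scale) against the level of the terminal contig of its host (horizontal axis, log scale); colour gives the number of contigs. Most of the 19688 members lie between the lines for 10% and 1% of the terminal contig, and 1367 lie above the line of equal level.

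At hosts, signal usually ran past the annotated end. Hosts were chosen by signal downstream of that end, and the share among all genes was not computed. The contig nearest to the gene end, among those overlapping the last 1000 bases of the gene, ran past that end in 6745 of 7743 hosts (87.1%). The median overrun was 487 bases over all 7743, and 2753 had one of 1000 bases or more. This contig need not be the highest, so it can differ from the terminal contig. Between the gene end and the member, a median of 76.7% of the bases lay in contigs on the same strand. This share was 90% or more for 5987 members and under 10% for 1939. The median gap to the previous contig was 140 bases, and it was at most 100 bases for 8911 members (43.0%). Contigs of the table never lay closer than 11 bases to each other on a strand, so stretches parted by short gaps count as separate members.

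Long downstream contigs lay beside neuronal and other genes. Elavl2, a neuronal RNA-binding protein of the Elav-like family, had a single member of 35557 bases (mm9 chr4:90876279-90911835, minus strand) that began 5619 bases past the gene end. Its level was 1.5, against 2.34 in the terminal contig, which overran the gene end by 5544 bases. This terminal contig began far before the gene end, at position -43981 relative to it. The level of 2.34 is thus a mean over that whole stretch and not the level at the gene end. The last exon of Elavl2 has the same length in the later annotation. Neto2, an auxiliary subunit of kainate receptors, had a member of 20429 bases at 0.459, against 5.66 in its terminal contig. Gprasp2, a sorting protein of G-protein-coupled receptors, had 3 members with a summed length of 19997 bases at 0.265 to 0.393, against 28 in its terminal contig. Downstream of the zinc finger gene Zfp619, 2 members summed to 40163 bases, and the longer, of 35759 bases, had a level of 1.93, against 1.39 in the terminal contig. Xkr6, a membrane protein of the XK family, had members of 7878 bases at 0.739 and 26116 bases at 3.59, against 0.859. The centrosomal gene Cep85l had 3 members that stood at 0.18, 0.15 and 1.48 in order of distance, against 0.208. At Xkr6 and Cep85l the member farthest from the gene had the highest level.

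Igsf9b, a cell adhesion protein of inhibitory synapses, was chosen after its values were seen. Its member (mm9 chr9:27148487-27165257, plus strand) was 16771 bases long, began 6139 bases past the gene end and had a level of 2.46, against 0.51 in the terminal contig. That terminal contig ran from 2490 bases before the gene end to 6100 bases past it. The member was joined to the gene by 2 junctions, with 9 reads in the first and 18 reads in the second value. By contrast, the members of Dcx, a microtubule-binding protein of migrating neurons, stood at 0.057 to 0.141, against 39.2 in its terminal contig. Snap25, a synaptic vesicle fusion protein, had 9 members at 0.035 to 0.185, against 23.6.

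**Figure D4:**
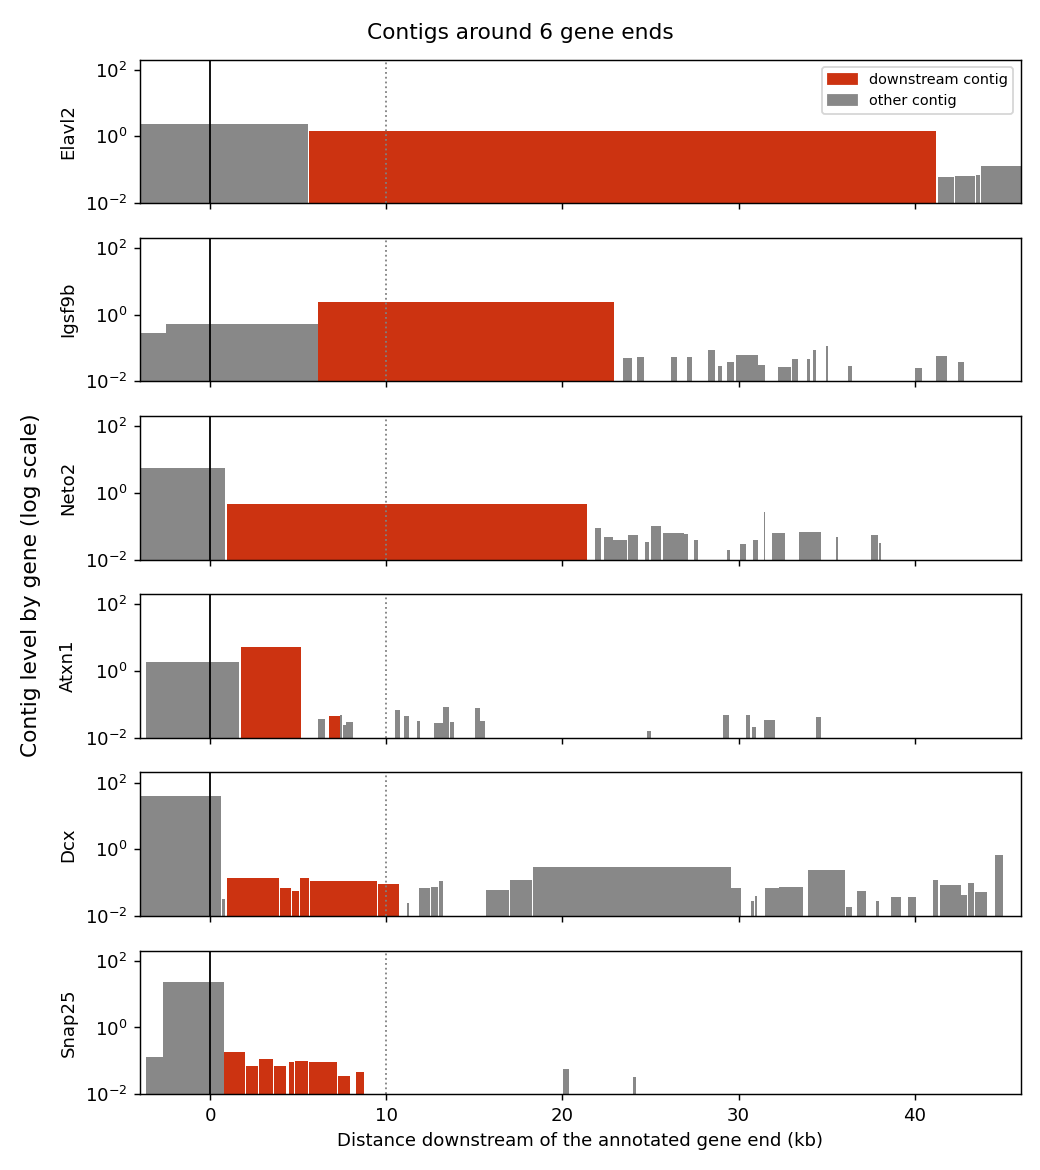
Contig level (vertical axes, log scale) by distance from the annotated gene end (horizontal axis, from 4 kb inside the gene) at 6 genes; red blocks are members and grey blocks other contigs on the same strand. Elavl2, Igsf9b and Neto2 have 1 long member each, Atxn1 a member above its terminal contig, and Dcx and Snap25 rows of low members.

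Members above the terminal contig also lay beside hosts at a mean of 1 RPKM or more, of which 4 chosen after their values were seen follow. Uncx, a homeobox gene, had a member of 7816 bases at 1.47 that began 244 bases past its end, against 0.49 in the terminal contig. Its last exon had 0.264 and 0.0311 RPKM, against 4.64 and 3.54 RPKM for the gene as a whole. Jakmip1, which encodes a microtubule-associated protein of neurons, had one of 8512 bases at 0.711, against 0.138, and its last exon had 0.216 and 0.135 RPKM, against 4.00 and 3.40 RPKM for the gene. Acbd6, an acyl-CoA-binding protein, had one of 4029 bases at 1.35, against 0.622. Its last exon had 1.49 and 1.27 RPKM, against 6.12 and 10.4 RPKM for the gene, and is 4097 bases longer in the later annotation, so that most of the member lies inside it. Ndufa9, a subunit of respiratory complex I, had one of 2441 bases at 4.03, against 1.95, and a de novo exon in it had 1.03 and 0.745 RPKM.

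Among the 30 highest members, 18 were under 200 bases long and 12 reached that length. Their hosts stood under 1 RPKM for 21 and at 1 RPKM or more for 9. The 3 highest held 14.99% of the covered bases of all members and the 30 highest 24.9%. The highest, at 2290, was 187 bases long and lay 7301 bases past the end of the splicing factor gene Tra2a, which itself had 12.7 and 20.1 RPKM. The other 2 members of Tra2a stood at 0.095 and 0.071, against 10.6 in its terminal contig. Gm15569, an antisense gene at 0 and 0.003476 RPKM, had a member of 583 bases at 402. Rimbp3 had one of 341 bases at 272, in which a de novo exon had 21.1 RPKM in the first and 52.5 RPKM in the second value. Fermt1, which encodes the integrin-binding protein kindlin-1, had one of 65 bases at 156. The small nucleolar RNA gene Gm24598 had one of 1842 bases at 114, against 0.461 in its terminal contig.

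Some of these high members coincided with genes that Ensembl 65 does not list. In the later annotation the next same-strand gene was compared by its distance from the host end within that build. It counted as matching where this distance fell within the member or 200 bases of it. The member's distance is from the Ensembl 65 end, so a match can be wrong where the end moved. At Kcnk9, counted as a match, the later last exon is 11030 bases longer. A matching gene whose identifier is absent from Ensembl 65 was found for 240 members of 226 hosts. Of these members, 69 were matched to a lincRNA, 66 to a processed pseudogene and 50 to a gene typed TEC. That is the label for models that await experimental testing. Median levels were 0.124 for the lincRNA matches, 0.151 for the processed pseudogenes and 0.127 for the TEC genes. Of 7806 hosts with any next same-strand gene in the later annotation, 537 (6.88%) had a new gene as that next one within 10 kb. Among other genes these were 1155 of 24802 (4.66%). Among the 30 highest members 5 matched a new processed pseudogene. Elane, the neutrophil elastase gene, had a member of 350 bases at 82 that began 450 bases past its end, where the later annotation places Gm19810 497 bases away. De novo exons in this member had 29.6 RPKM in the first and 27.5 RPKM in the second value, whereas Elane itself had 0.0415 and 0.0269 RPKM. The other 4 were a member at 74 beside Gm22519 (matching Gm2999), one at 45.5 beside Gm22019 (Gm5905), one at 24.4 beside Actn2, the actinin of the muscle Z-disc (Gm47021), and one at 20.6 beside Ddx4, an RNA helicase of germ cells (Gm3226). Processed pseudogenes share sequence with their parent genes, and how reads were divided among such copies is uncertain.

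Few downstream contigs were spliced to their host. A junction at a reproducibility value of 0.1 or less had 1 end in the member and the other in the host for 90 members of 90 hosts, or 0.434% (Wilson 95% interval 0.353 to 0.533%, which covers counting error only). Reads came from both values in 85 of them. The count depends on the junction filter: 47 members were joined at 0.01 or less, and 860 (4.15%) with all junctions. Joined members had a median level of 0.24 and a median length of 2035 bases, against 0.077 and 650.5 bases for members that were not joined. Their median share of the terminal contig was 31.2%. Splicing to any gene on the same strand was found for 155 members (0.747%), against 513 of the 62734 other reproducible contigs outside genes, or 0.818%.

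Joined members lay at every distance, and 10 of the 90 began beyond 8 kb. The member of the antisense gene Gm11508 had the most reads, 150 in the first and 165 in the second value over 5 junctions. It was 3248 bases long, began 7012 bases from the gene and stood at 0.87. At Gprasp2 the member nearest the gene was joined with 145 and 87 reads over 2 junctions. Cr1l, a complement regulator, had 58 and 64 reads into a member at 1.68, or 281% of the terminal contig. Ksr2, a scaffold of the MAP kinase pathway, had 32 and 87 reads into a member of 9448 bases at 1.35. By distance from the host end, the next same-strand gene of the later annotation lies within the span of both these members. Cd46 lies 5133 bases past Cr1l, whose member began at 4382 bases. Nos1 lies 6029 bases past Ksr2, whose member began at 2230 bases. Neither neighbour is new, so the match to new genes left them out. Whether these members belong to the neighbours was not tested. The receptor gene Tgfbr3 had 0 and 103 reads into a member of only 15 bases, so this junction was seen in 1 value alone. These hosts were chosen after their values were seen. Among the 6 joined members farthest from their gene were those of Grip1os3, 9313 bases away with 9 and 8 reads, Arfgap3, a GTPase-activating protein of the Golgi, 8656 bases away with 14 and 5 reads, and the zinc finger gene Zfp758, 8678 bases away with 3 and 6 reads.

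Some hosts had a longer last exon in the later annotation. For 6489 hosts the last exon of the same transcript could be compared, and it was over 100 bases longer in 432 (6.66%) and over 100 bases shorter in 104. Among other genes 730 of 14793 (4.93%) were longer, and among all genes 5.46%. Of the 16363 members of the 6489 hosts, longer or not, 119 members of 87 hosts lay by at least 50% of their length inside the later last exon. With the end of the gene by any later transcript in place of the same transcript, a choice made after the data were seen, 783 hosts (12.1%) were longer. Neto2, described above, was 649 bases longer, and its member began 974 bases past the old end. Khdrbs2, an RNA-binding protein of neurons, was 830 bases longer, and its nearest member began 3063 bases past the old end. Neither extension thus reached a member. Dcx, Gap43, Celf1 and Msi2 had the same last exon in both.

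De novo transcript models joined more of the nearer members to their host. The authors' deposited de novo exons, named Cufflinks in the file, overlapped 13113 members. For 2053 members (9.90%) the same de novo gene also overlapped the host, with 18.9% of members in the first 1 kb and 3.29% from 8 to 10 kb. The de novo exon itself also overlapped the host for 11.2% in the first 1 kb and 0.0813% from 8 to 10 kb. Where the member and a de novo exon covered each other by at least 50%, in 7772 members, both RPKM values can be read. Their medians were 0.0176 RPKM in the first and 0.0163 RPKM in the second value, or 1.93% and 1.85% of the last exon of the host. Of the 7463 members above 0 in both, 67.0% had values within 2-fold of each other, and 57 of the 77 members with a mean of 1 RPKM or more did.

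**Figure D5:**
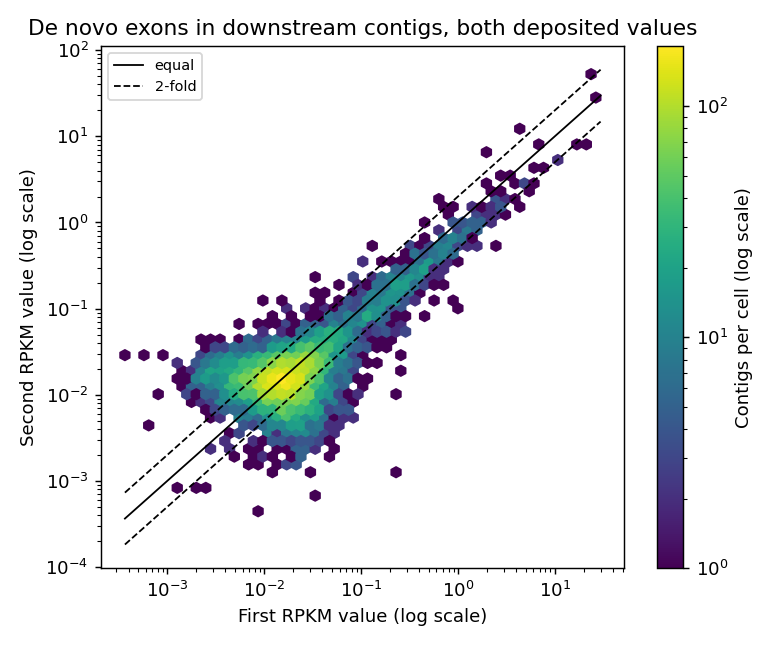
Second against first RPKM value (both log scale) of de novo exons that match a downstream contig, for the 7463 above 0 in both; colour gives the number of contigs and the dashed lines mark 2-fold. Values near 0.01 RPKM scatter widely, and 57 of 77 with a mean of 1 RPKM or more lie within 2-fold.

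Protein-coding genes made up most hosts, 6519 of the 7807 with a symbol, and 32.3% of protein-coding genes were hosts. Among small RNA genes the hosts were 101 of 1081 miRNA genes (9.34%), 86 of 1085 small nuclear (7.93%) and 55 of 1187 small nucleolar RNA genes (4.63%), beside 22.6% of all genes. The median over hosts of the highest member was 88.5% of the terminal contig for miRNA genes, beside 4.11% for protein-coding genes. A miRNA is cut from a longer precursor transcript. The member of Mirlet7c-1 was 23149 bases long, began 4857 bases past the hairpin and had a level of 0.831, against 0.916 in the contig over the hairpin. A de novo exon matching it had 0.166 RPKM in the first and 0.221 RPKM in the second value. The member of Mir3099 was 28940 bases long at 0.309, against 0.348. Both members matched genes typed TEC that Ensembl 65 does not list, Gm37311 for Mirlet7c-1 and Gm44585 for Mir3099. At Mir138-1, whose miRNA is abundant in brain, 2 members summed to 10158 bases with a highest level of 0.279, against 2.28. The mature sequences are shown to identify these hosts, with the seed (bases 2 to 8) in capitals, from RefSeq on GRCm38.p6; all 3 seeds differ.
mmu-let-7c-5p: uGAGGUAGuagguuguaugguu
mmu-miR-3099-3p: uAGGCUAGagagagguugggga
mmu-miR-138-5p: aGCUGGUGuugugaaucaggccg

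Genes of the lists were hosts about as often as all genes at 1 to 10 RPKM, or more often, by list. The lists were chosen with results of these data known, and 188 of 189 genes were matched. Of the genes known for short and long 3′ UTR forms in neurons, 12 of 20 were hosts, of neuronal RNA-binding proteins 18 of 35, and of cleavage and polyadenylation factors 11 of 24. Neurodevelopmental transcription factors had 20 hosts of 29, axon growth and guidance genes 19 of 30 and synapse and excitability genes 20 of 30. The share ran from 45.8% to 69.0%, beside 45.5% of all genes at 1 to 10 RPKM. The median of the mean RPKM over a list was 5.28 to 12.7. The median over hosts of the highest member was 1.12% to 2.23% of the terminal contig. The median over all members of hosts at 1 to 10 RPKM, a different measure, was 2.36%. The contig nearest to the gene end ran past it in 11 of 12 hosts with short and long forms and 18 of 19 axon hosts. It did so in every host of the other lists, beside 87.1% of all hosts with a terminal contig.

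Of the 100 list hosts, 9 had a member above 10% of the terminal contig, beside 37.5% of all 7743 hosts with a terminal contig and 14.2% of those at 1 to 10 RPKM. Elavl2 led with 64.1%, relative to a terminal contig whose level is a mean over a stretch that began far before the gene end. Epha7, an ephrin receptor of axon guidance, reached 17.5% with members at 0.112, 0.247 and 0.344 in order of distance, against 1.97 in its terminal contig. The neuroligin gene Nlgn1, a postsynaptic adhesion protein, reached 13.1% with a member of 7925 bases at 0.445. The GABA receptor subunit gene Gabra2 reached 11.2% with a member of 11271 bases at 0.307. The RNA-binding genes Khdrbs3 and Mbnl1 reached 12.2% and 10.1%, the transcription factor gene Meis2 11.5%, the synaptic scaffold gene Homer1 11.1% and Rbbp6, a cleavage factor, 10.5%. None of the 12 genes known for short and long forms did so. In that list Cdc42, a small GTPase, had 6 members up to 0.2, against 16.8. Gap43, a growth cone protein, had 3 members at 0.04 to 0.095, against 52.6, and Stmn2, a tubulin-binding protein of growing axons, 3 members at 0.091 to 0.333, against 27.2. Tbr1, a transcription factor of cortical projection neurons, had 3 members at 0.127, 0.16 and 0.339, against 5.45.

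The factors that choose and cut mRNA ends were themselves expressed, and some were hosts. All 24 matched cleavage and polyadenylation factors and all 35 neuronal RNA-binding proteins reached 1 TPM in both libraries. The cleavage factors had a median of 53.6 TPM in replicate 2, against 57.3 in replicate 1, and the RNA-binding proteins one of 80.6 TPM, against 75.1. Papola, the poly(A) polymerase, was at 126 TPM in replicate 2, against 154 in replicate 1, and had 5 members at 0.095 to 0.206, against 4.99 in its terminal contig. Pabpc1, the cytoplasmic poly(A)-binding protein, stood at 215 and 117 TPM, and had members of 6363 and 4190 bases at 0.129 and 0.123, against 11.6. Elavl2 stood at 79.1 and 68.2 TPM.

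Hosts were more highly expressed than genes at large and differed little between the libraries. In the mm10 gene tables, which held 7849 hosts, the median host had 13.5 TPM in replicate 2 and 12.4 TPM in replicate 1, against 0.04 and 0.03 TPM for all 43346 genes. Both libraries reached 1 TPM for 77.0% of hosts, against 33.9% of all genes. Among the 6136 hosts at a mean of 1 TPM or more, the median log2 ratio of replicate 2 over replicate 1, on log2(TPM + 1), was 0.03, and the median absolute ratio was 0.25, against 0.27 for all such genes. In replicate 2, 123 hosts (2.00%) were 2-fold or more higher, against 2.39% of all genes, and 48 (0.782%) were 2-fold or more lower, against 1.14%. With 1 library a side these differences have no test.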

How the data were processed

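Members, gene lists and comparisons were chosen with earlier results of these data known, and hosts were named by a rule: the highest levels, summed lengths, numbers of members and ratios, the farthest joined members and list members; others are marked in the text. Contig levels are signal values that the authors deposited on mm9, pooled over both libraries, beside a reproducibility fraction and a deposited score of summed covered bases. Level equals covered bases per base divided by 58 in 99.9999% of contigs within 0.5%. Junction read counts were deposited by the authors per value column and summed. RPKM values on Ensembl 65 and de novo features were deposited by the authors as 2 values that are not tied to a library, and of the 2 lines per Ensembl 65 gene 1 was kept. Expected counts, TPM and FPKM per gene were deposited by the authors and estimated with GENCODE M4 on mm10, per the files' text notes; aligners and tools are not given in the sources used here. Last exons were compared between transcripts of the same identifier, exon number and last intron length whose end lay within 10 bases of the gene end. Interval steps gave 0 differences from exhaustive search on 2845 simulated contigs. Software was Biopython 1.88, matplotlib 3.10.9, scipy 1.17.1, pandas 2.3.3 and numpy 2.4.6 under Python 3.11.15. Alternatives covered the reproducibility limit, distance, strand rule, length, junction filter, reference level and TPM settings.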

Additional observations from a re-analysis of the deposited data

How the results depend on the processing

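Of 52 settings tried, 26 left a value within its spread, interval or a factor of 1.5. For the share of the terminal contig the spread was 0.0586, the standard deviation of 2 medians of another measure, the percent of the last exon. For the log2 ratio it was 0.254, the median absolute ratio over hosts. The first is narrow and the second wide, so the count of 26 does not measure robustness. Members and hosts numbered 10408 and 5598 at a reproducibility of 0.01, and 6532 and 4943 within 2 kb; members numbered 13459 within 5 kb. The median share of the terminal contig was 4.21% at a reproducibility of 0.05, 4.98% at 0.01, 3.88% with the strand-only overlap rule, 3.65% for contigs of 200 bases or more and 3.91% without contigs upstream of a gene start. It was 3.94% against the contig nearest to the end, 3.59% against reproducible terminal contigs and 2.04% for hosts at 1 RPKM or more. Member level divided by gene RPKM had a median of 4.52% for mean RPKM and 4.32% to 4.67% for a single RPKM value. Contig level and RPKM are different units, so these percents are not shares and cannot be set beside the others. Joined members made up 0.548% at a contig reproducibility of 0.05, 0.807% at 0.01, 0.227% with junctions at 0.01 or less and 4.15% with all junctions. Hosts with a longer last exon made up 7.51% at a reproducibility of 0.01, 5.00% within 2 kb, 4.99% for over 500 bases and 12.1% by any later transcript. The median host level was 20.8 TPM at a mean of 1 TPM or more, 13.1 TPM with no filter, 13.5 in FPKM, and 20.04 to 21.21 TPM with 1 library left out. The median log2 ratio between the libraries was 0.03 on log2(TPM + 1), 0.00 with no filter and -0.03 in FPKM.

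No paired analysis was possible because the study has 1 group. Contig values are pooled, so leaving out a library was possible for gene values alone. The lowest member, at a level of 0.024, had a mean depth of 1.41 reads per base, and no fainter extension is among the members.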
